A study of Homo sapiens with 10 samples.

Results

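NK-92 cells exposed to the iron chelator deferoxamine (DFO) for 24 h were compared, gene by gene, with untreated cells. NK-92 is an established human line grown from a natural killer (NK) cell lymphoma. The comparison contrasts 4 of the 10 libraries in the series. These are 2 of cells given 500 µM DFO and collected at 24 h, and 2 of cells collected untreated at 0 h. The medium of all cultures was Artemis Medium-1, to which human serum was added at 2%, and their polyadenylated RNA was sequenced. Set beside these 4 libraries below are cells after 6 h of the same dose of DFO (2 libraries). Cells after 24 h with PPMX-T003 (T003, 10 µg/mL), an antibody that binds transferrin receptor 1, are used in the same way (2 libraries). The spread behind each p-value was estimated over all 10 libraries, which also include 2 of cells after 6 h with T003. Of the 54628 genes in the table, 20125 had enough counts to be tested. Surface receptors, transcription factors, secreted proteins and signalling proteins were followed as lists, and genes outside the lists were followed by the size of their change.

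Iron is taken up by most cells as transferrin bound to transferrin receptor 1, and the mRNA of that receptor is stabilised by iron regulatory proteins when iron is scarce. DFO binds ferric iron and withholds it from enzymes that need it, among them the prolyl hydroxylases that mark the hypoxia-inducible factors (HIF) for breakdown and the Jumonji histone demethylases. NK cells kill target cells and release cytokines under the control of opposing receptors, adhere and migrate through integrins and chemokine receptors, and are directed in their maturation by T-box, Ikaros, ID and PRDM1 factors.

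The 10 libraries held 107117892 to 143575614 estimated counts each. TFRC, the gene of transferrin receptor 1, checks the iron status that the labels imply. It was at 177 and 165 CPM (counts scaled to library size) in the untreated libraries and at 834 and 833 CPM after 24 h of DFO. Each of the 20 NK cell markers followed reached 1 CPM in at least 1 library, and their summed level was 4182 and 4141 CPM before and 4153 and 4234 CPM after. Of 11 T cell markers, 8 stayed under 1 CPM, among them CD3D, CD3G, CD8A, CD8B, CD4 and CD5, and the list's sum was 535.7 and 535 CPM before and 563 and 587 CPM after. Its 3 others were CD3E (434 and 436 CPM before, 443 and 459 CPM after, adjusted p = 0.259), CD28 and TRAT1; the call of TRAT1 (log2 change 0.51, adjusted p = 0.0123) ended without any of 3 libraries, with adjusted p from 0.0739 to 0.0986. In the B cell, monocyte and stromal lists 1 marker each reached 1 CPM in any library (PAX5, CD68 and PDGFRB), and in the erythroid list none did. The part of other cell types in the results was not tested. Cells kept untreated for 24 h are not part of the comparison, so the effect of DFO and that of 24 h in culture cannot be told apart. No label says that the libraries of a group came from separate cultures, so p-values measure the spread between these libraries, which may be technical. Untreated replicate 1 lay nearer to the DFO mean than untreated replicate 2 did in 541 of the 691 genes called higher (78.3%) and in 489 of the 658 called lower (74.3%), against 10086 of the 18776 others (53.7%).

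One sequence element is shown first because of what DFO is known for. The letters ACGTG form the core that HIF binds, and the same letters lie inside the E-box CACGTG, which is read by MYC, MAX-network and circadian factors. Below are the 250 bases before the annotated start of 6 of the genes described in the text whose windows hold ACGTG on either strand. They are given 5′ to 3′ along the gene, from RefSeq on GRCh38.p14. Windows of other genes in the text hold it too, among them ORAI2 and SMAD3 (higher) and SEMA4D and SKIL (lower). Capitals mark ACGTG, its reverse complement CACGT, or CACGTG where both overlap. TFRC (chr3:196082091-196082340, minus strand), ITGA6 (chr2:172427086-172427335, plus strand) and XCL2 (chr1:168543998-168544247, minus strand) were higher after 24 h of DFO. BHLHE40 (chr3:4979187-4979436, plus strand), QSOX1 (chr1:180154619-180154868, plus strand) and IL9R (chrX:155997446-155997695, plus strand) were lower.
TFRC: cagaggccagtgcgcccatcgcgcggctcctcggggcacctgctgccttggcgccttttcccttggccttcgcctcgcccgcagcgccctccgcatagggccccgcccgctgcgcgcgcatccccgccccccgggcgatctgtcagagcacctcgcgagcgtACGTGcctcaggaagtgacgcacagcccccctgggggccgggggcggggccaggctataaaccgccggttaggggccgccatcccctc
ITGA6: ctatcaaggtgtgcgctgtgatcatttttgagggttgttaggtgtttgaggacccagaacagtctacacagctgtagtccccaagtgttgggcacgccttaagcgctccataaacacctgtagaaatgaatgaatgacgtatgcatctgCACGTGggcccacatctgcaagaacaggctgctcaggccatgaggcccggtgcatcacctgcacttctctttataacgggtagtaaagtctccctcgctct
XCL2: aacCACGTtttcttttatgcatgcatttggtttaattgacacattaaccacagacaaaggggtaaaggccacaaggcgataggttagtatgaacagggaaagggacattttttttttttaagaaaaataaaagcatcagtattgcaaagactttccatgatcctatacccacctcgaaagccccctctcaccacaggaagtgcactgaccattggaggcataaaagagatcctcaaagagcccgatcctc
BHLHE40: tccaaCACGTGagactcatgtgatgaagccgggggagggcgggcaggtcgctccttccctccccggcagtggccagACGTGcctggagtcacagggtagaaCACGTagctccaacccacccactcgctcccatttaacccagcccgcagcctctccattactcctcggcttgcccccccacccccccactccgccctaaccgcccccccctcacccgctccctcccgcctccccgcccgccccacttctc
QSOX1: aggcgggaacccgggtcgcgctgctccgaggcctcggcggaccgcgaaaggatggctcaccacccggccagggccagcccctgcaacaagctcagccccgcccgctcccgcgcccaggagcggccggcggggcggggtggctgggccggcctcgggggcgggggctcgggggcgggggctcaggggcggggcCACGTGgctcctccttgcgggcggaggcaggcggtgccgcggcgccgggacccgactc
IL9R: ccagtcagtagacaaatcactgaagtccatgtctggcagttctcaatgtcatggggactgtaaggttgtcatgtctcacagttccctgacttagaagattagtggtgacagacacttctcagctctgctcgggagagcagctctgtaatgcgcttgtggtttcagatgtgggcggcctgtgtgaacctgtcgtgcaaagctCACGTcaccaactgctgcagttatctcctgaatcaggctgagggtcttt
The BHLHE40 window held 4 matches, as CACGTG counts once on each strand. The TFRC window held 1, whose first base lies 88 bases before the start. Over all 12572 tested genes with a RefSeq window, 22.7% held ACGTG. The share was 26.2% of the 534 genes called higher that had a window and 19.7% of the 522 called lower. Among calls of 2-fold or more it was 10.0% of 10 higher and 27.0% of 37 lower. For CACGTG the shares were 8.4% of tested genes, 11.6% of those called higher and 7.47% of those called lower. Windows of EPHA1, MYO5B, ZNF683, IRF8, CCL3 and IFNG held no ACGTG. A match describes letters in a window and was not tested as a binding site.

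After 24 h of DFO, 1349 genes passed an adjusted p of 0.05, which is 6.7% of those tested. Of these, 691 were higher (3.43% of tested genes) and 658 lower (3.27%). Most changes were small: the median size of a called change was 0.20 on the log2 scale, and the median change over all tested genes was near zero at -0.0023. Large changes lay on the side of the falls, with 53 called genes at least 2-fold lower and 14 at least 2-fold higher. Of these, 22 and 8 had a mean of at least 1 CPM, while 11 of the lower were listed at 0 in both DFO libraries and 5 of the higher at 0 in both untreated libraries. The 67 calls of 2-fold or more became 31 without untreated replicate 2, 44 without DFO 24 h replicate 2, 44 with limma-voom and 27 with DESeq2. In each of the 1349 called genes the 2 untreated and the 2 DFO libraries did not overlap. Lack of overlap in a called gene named below therefore adds no support to its call. Leaving out single libraries moved the count to 431 without untreated replicate 2, 529 without DFO 24 h replicate 2, 781 without DFO 24 h replicate 1 and 950 without untreated replicate 1. In all, 369 of the calls (167 higher and 202 lower) passed without each of the 10 libraries in turn. Every call named below is one of these unless the library that ended it is given.

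**Figure D1:**
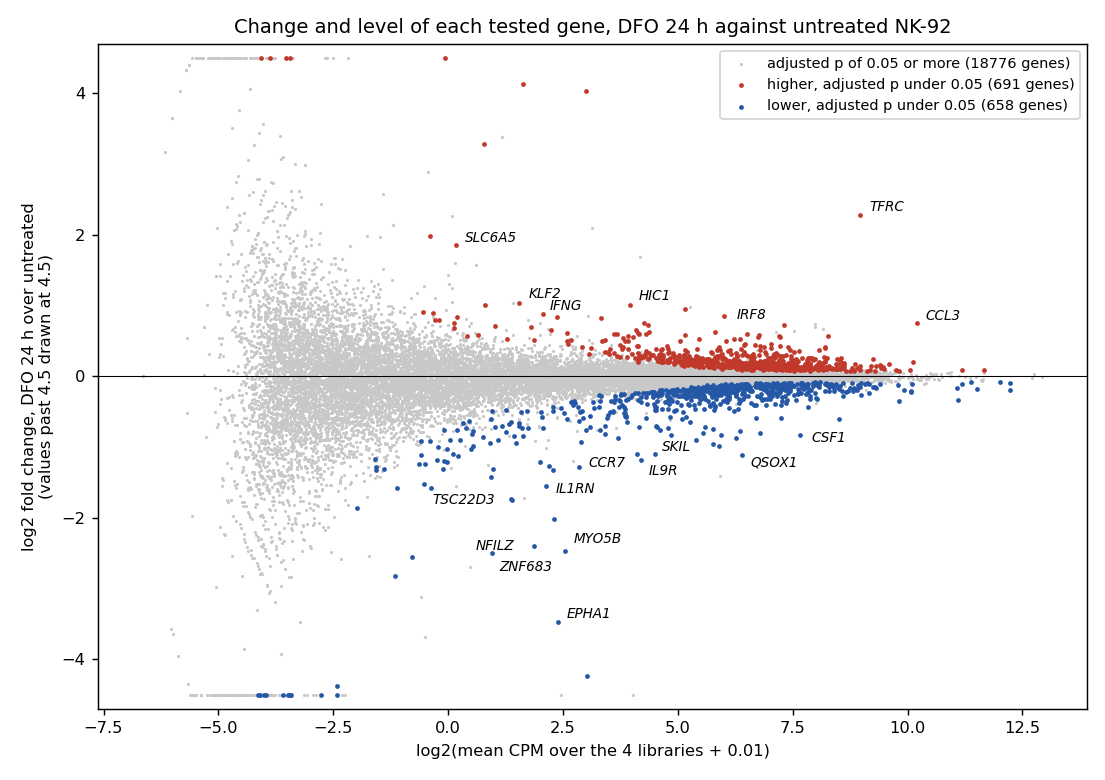
Each point is 1 of the 20125 tested genes. The horizontal axis is the log2 of the mean CPM over the 2 untreated and 2 DFO 24 h libraries, and the vertical axis is the log2 fold change of DFO 24 h over untreated. Red marks the 691 genes called higher, blue the 658 called lower and grey the rest, and the named genes are described in the text; among labelled genes TFRC has the highest positive value (2.29) and EPHA1 the lowest (-3.47), and the unlabelled points beyond them at 1 CPM or more are overlapping transcripts described in the text.

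Calls in the regulatory classes went in both directions. Of 473 surface receptors, carriers and channels tested, 62 were called higher and 32 lower (19.9%), with a median log2 change of 0.02. Among 298 transcription factors 33 were higher and 28 lower (20.5%), and among 298 signalling and chromatin proteins 26 were higher and 30 lower (18.8%). Of 211 secreted proteins 14 were higher and 11 lower (11.8%). These shares stand beside 6.7% of all tested genes and 9.8% of the 12723 tested protein-coding genes. The classes and the lists below were chosen with earlier results known, so no excess is drawn from their counts. List counts below stand beside 3.43% of all tested genes called higher and 3.27% called lower. Long noncoding RNAs had a lower share, with 13 called higher and 24 lower of 3003 (1.23%). Without 1 of the 4 compared libraries, the called count ranged from 42 to 83 for the surface class, from 26 to 55 for the transcription factors, from 26 to 44 for signalling and chromatin proteins and from 15 to 24 for secreted proteins. The first 3 were lowest without untreated replicate 2 and the last without DFO 24 h replicate 2.

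**Figure D2:**
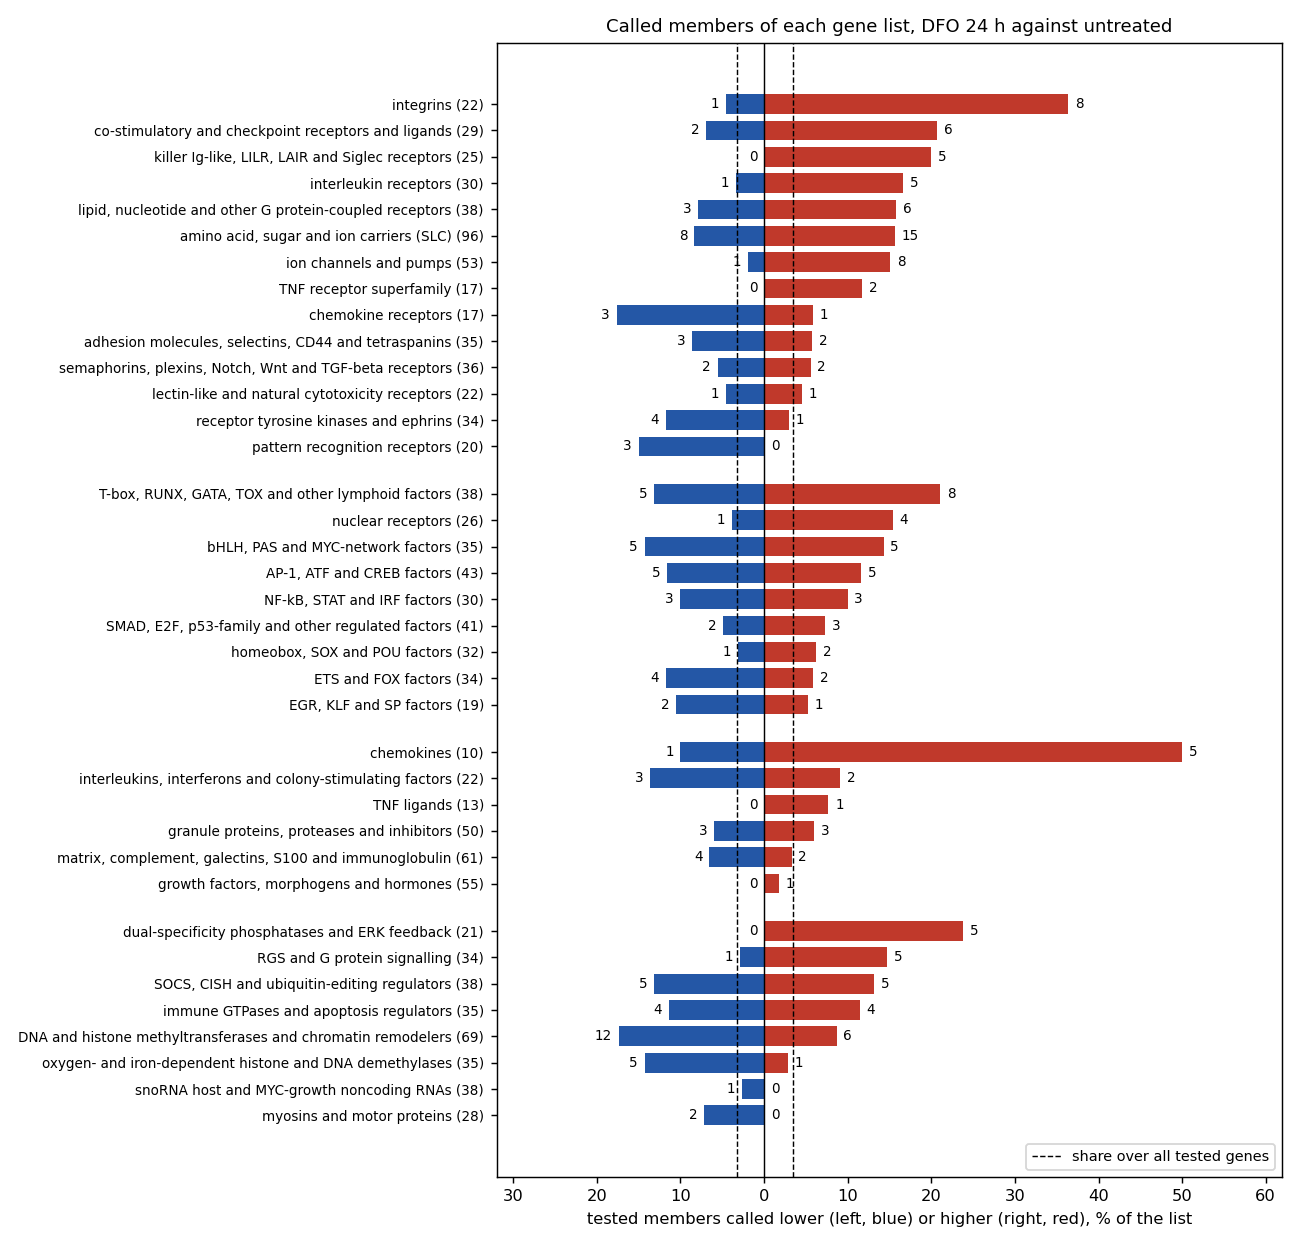
Bars show, for each gene list, the percent of its tested members called higher (red, to the right) or lower (blue, to the left) after 24 h of DFO, with the number of genes at the end of each bar and the number tested in brackets. Dashed lines mark the shares over all tested genes (3.43% higher and 3.27% lower). Chemokines (5 of 10 higher) and integrins (8 of 22 higher) have the longest red bars.

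Several receptors and adhesion ligands fell, among them receptors for an ephrin, a chemokine and a cytokine. EPHA1, a receptor tyrosine kinase for ephrin-A ligands (chromosome 7, 143391129 to 143408856, GRCh38.p14), fell furthest among them. It was at 8.45 and 10.8 CPM in the untreated libraries and at 0.697 and 1.03 CPM after DFO, a log2 change of -3.47 (SE 0.175, adjusted p = 4.75e-06). Both DFO libraries thus lay far below both untreated ones, although the gene overlaps EPHA1-AS1, and without knowledge of how strand was counted the reads of an antisense partner cannot be told apart. CCR7, the chemokine receptor that guides lymphocytes to lymph nodes (chromosome 17, 40553769 to 40565472), went from 10.7 and 9.67 CPM to 4.30 and 4.09 CPM (log2 change -1.28, SE 0.108, adjusted p = 7.05e-05). IL9R, the receptor chain for interleukin 9 (chromosome X, 155997696 to 156013020), went from 23.4 and 27.8 CPM to 11.4 and 11.1 CPM (-1.19, SE 0.0869, adjusted p = 2.75e-05). The DFO values of both receptors sat within narrow ranges under the untreated ones. SELPLG encodes PSGL-1, the ligand of the selectins. It was at 99.1 and 108 CPM before and 62.7 and 58.9 CPM after (-0.77, SE 0.0438, adjusted p = 6.5e-06), and it overlaps LOC105369968. Other genes named in the text also overlap annotated genes, among them SEMA4D, CD160, CISH, DDIT3 and PLAU, with the same limit.

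Smaller falls touched other surface proteins of NK cells. CXCR3, a receptor for interferon-induced chemokines, was at 143 and 145 CPM untreated and at 117 and 122 CPM with DFO (log2 change -0.27, adjusted p = 0.00267). CXCR4, the receptor for CXCL12, went from 68.3 and 75.2 CPM to 61.8 and 58.9 CPM (-0.25, adjusted p = 0.00529), a call that ended without DFO 24 h replicate 2 (adjusted p = 0.0635). With CCR7 these made 3 of 17 tested chemokine receptors lower, and CCR1, a receptor for CCL3 and CCL5, was called higher (0.20, adjusted p = 0.0116). CCR1 failed the test when untreated replicate 2 (0.0922) or DFO 24 h replicate 2 (0.0673) was left out, and the list's 4 calls became 2 without the latter. The list's median log2 change was -0.06, against -0.0023 over all genes. Among adhesion molecules, the hyaluronan receptor CD44 went from 210 and 213 CPM to 173 and 183 CPM (-0.25, adjusted p = 0.000709), and the tetraspanin TSPAN14 from 111 and 119 CPM to 86.3 and 86.4 CPM (-0.41, adjusted p = 3.88e-05). KLRD1, which encodes CD94, the partner chain of NKG2 receptors, was at 49.9 and 49.998 CPM and then at 39.7 and 40.3 CPM (-0.32, adjusted p = 0.000452). As in every gene called lower, both DFO libraries were below both untreated libraries for the falls of this paragraph.

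Falls of the same order were found for the inhibitory receptor CD200R1 (log2 change -0.32, adjusted p = 0.00376) and the CD2 ligand CD58 (-0.39, adjusted p = 0.00284). SEMA4D, a semaphorin of lymphocytes, was at 473 and 492 CPM before and at 422 and 413 CPM after (-0.21, adjusted p = 0.000674). Of 20 pattern recognition receptors 3 were called lower and none higher (1 without DFO 24 h replicate 2), with NLRC3, an inhibitory NOD-like receptor, going from 138 and 137 CPM to 115 and 114 CPM (-0.26, adjusted p = 0.000104). PDGFRB, the beta receptor for platelet-derived growth factor, is a marker of stromal cells, yet NK-92 carried it at 106 and 112 CPM, falling to 85.9 and 81.7 CPM (-0.38, adjusted p = 0.000179). The other 11 markers of the epithelial and fibroblast list were under 1 CPM, so the list's sum of 106 to 113 CPM before and 82.4 to 86.7 CPM after was nearly all PDGFRB. With EPHA1 and PDGFRB, 4 of 34 tested receptor tyrosine kinases and ephrins were lower and 1 was higher, and 2 were called in all without any 1 of the 4 compared libraries.

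Among integrins and killer Ig-like and related receptors, more members were called higher than lower. Of 22 tested integrins 8 were called higher and 1 lower, beside 3.43% and 3.27% of all tested genes. The median log2 change over the list was 0.15. ITGA6, the alpha 6 chain of laminin-binding integrins (chromosome 2, 172427336 to 172506459), was at 11.8 and 11.2 CPM untreated and at 17.3 and 16.0 CPM after DFO (log2 change 0.54, SE 0.0657, adjusted p = 0.000723). ITGAX, the CD11c chain, went from 2.87 and 3.03 CPM to 5.19 and 5.68 CPM (0.88, adjusted p = 0.00584), a call that ended without DFO 24 h replicate 2 (0.0549). The chains of LFA-1, through which NK cells hold their targets, rose less: ITGB2 went from 359 and 348 CPM to 400 and 410 CPM (0.19, adjusted p = 0.0053) and ITGAL from 381 and 350 CPM to 430 and 404 CPM (0.19, adjusted p = 0.0149). Neither passed when untreated replicate 2 was left out (adjusted p = 0.0781 and 0.123), ITGB2 also not without DFO 24 h replicate 2 (0.0587) and ITGAL not without DFO 24 h replicate 1 (0.102). The integrin count ranged from 3 (without DFO 24 h replicate 2) to 9 without 1 of the 4 libraries. ICAM1, a ligand of LFA-1, rose from 82.7 and 78.2 CPM to 98.9 and 99.1 CPM (0.30, adjusted p = 0.0014).

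Of 25 killer Ig-like, LILR, LAIR and Siglec receptors 5 were called higher and none lower, with a median log2 change of 0.21 and 3 called without DFO 24 h replicate 2. LILRB1, an inhibitory receptor for HLA class I, was at 65.2 and 57.7 CPM in untreated cells and at 79.4 and 79.6 CPM after DFO (0.37, SE 0.046, adjusted p = 0.000812). KIR3DX1, which RefSeq annotates as a transcribed pseudogene of the killer Ig-like receptor family, went from 66.6 and 56.6 CPM to 87.6 and 89.7 CPM (0.53, SE 0.0593, adjusted p = 0.000412). These families hold near-identical copies, between which the counting could split reads, so the values of single members are uncertain. FCMR, the Fc receptor for IgM, rose from 14.9 and 12.7 CPM to 20.8 and 21.4 CPM (0.61, adjusted p = 0.00143).

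Receptors coupled to G proteins and receptors for cytokines were also among the rises. PTGER2, a receptor for prostaglandin E2 (chromosome 14, 52314312 to 52328598), was at 109 and 103 CPM and then at 132 and 136 CPM (log2 change 0.34, SE 0.0314, adjusted p = 0.000116). PTGDR, a receptor for prostaglandin D2, went from 18.6 and 14 CPM to 24.2 and 26.1 CPM (0.63, adjusted p = 0.00778), a call that ended without DFO 24 h replicate 2 (0.0639). S1PR1, which guides lymphocytes out of tissue toward sphingosine 1-phosphate, went from 22.1 and 21.8 CPM to 26.5 and 28.1 CPM (0.32, adjusted p = 0.00369). With these, 6 of 38 tested G protein-coupled receptors were higher and 3 lower, with 4 called in all without DFO 24 h replicate 2. IL2RB, the beta chain of the interleukin 2 and 15 receptors, rose from 1052 and 1015 CPM to 1188 and 1182 CPM (0.20, adjusted p = 0.00148), and IFNAR2, a chain of the type I interferon receptor, from 55.6 and 54.0 CPM to 69.0 and 66.3 CPM (0.30, adjusted p = 0.00129). Both were part of 5 of 30 interleukin and interferon receptors called higher, where IL9R was the only one lower. CD28 rose by a log2 change of 0.30 (adjusted p = 0.000277) and the NK receptor CD160 by 0.24 (adjusted p = 0.00235). NCAM1, which encodes the NK marker CD56, was at 308 and 306 CPM before and 310 and 300 CPM after (log2 change -0.01, adjusted p = 0.933).

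**Figure D3:**
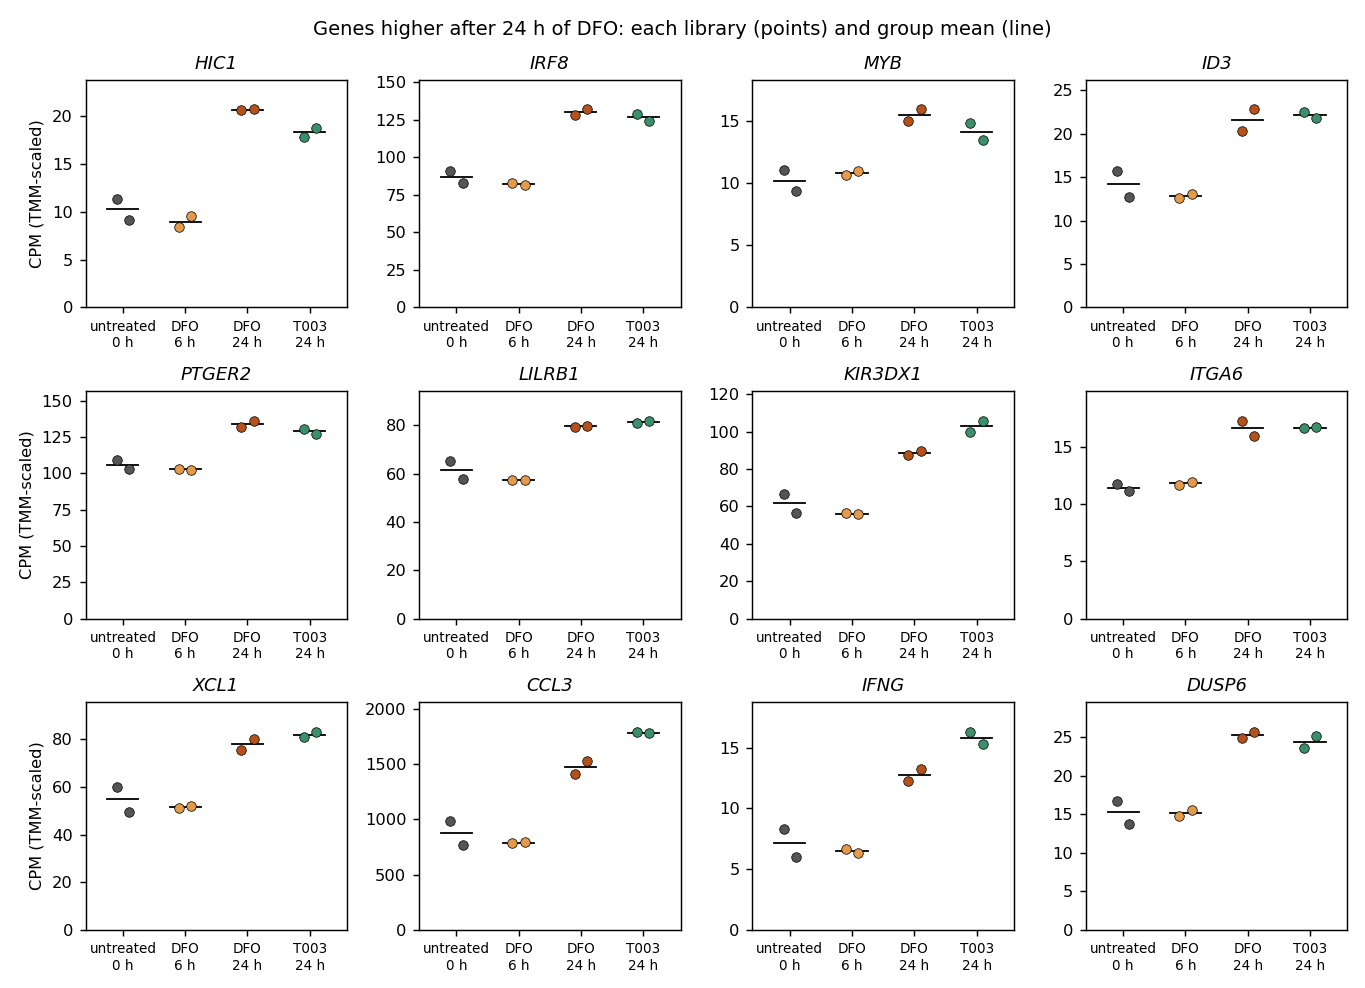
Each panel shows 1 gene called higher after 24 h of DFO, in CPM scaled by TMM factors, with a point for each library and a line at the group mean for untreated cells, DFO at 6 h and 24 h, and T003 at 24 h (2 libraries each, axes from 0). In every panel both 24 h DFO points lie above both untreated points, as for IRF8 at 128 and 132 CPM against 90.9 and 82.7 CPM.

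Carriers and channels changed in both directions. Of 96 solute carriers 15 were called higher and 8 lower, a count that ranged from 7 (without untreated replicate 2) to 21 without 1 of the 4 libraries. SLC7A11, the cystine importer that feeds glutathione synthesis (chromosome 4, 138164097 to 138242349), fell from 74.0 and 83.2 CPM to 40.6 and 39.1 CPM (log2 change -0.98, SE 0.0536, adjusted p = 5.06e-06). SLC3A2, its heavy chain and that of other amino acid carriers, fell less, from 235 and 245 CPM to 200 and 202 CPM (-0.26, adjusted p = 0.000438). SLC48A1, a heme transporter of endosomes, went from 31.4 and 36.9 CPM to 20.6 and 20.6 CPM (-0.73, SE 0.0659, adjusted p = 0.000104). SLC7A11 overlaps an antisense gene, and SLC48A1 overlaps HDAC7 and RAPGEF3, from which its reads cannot be fully told apart. The taurine carrier SLC6A6 was at 175 and 177 CPM and then at 145 and 145 CPM (-0.28, adjusted p = 7.68e-05). Among the rises, the lactate carrier SLC16A1 went from 283 and 272 CPM to 332 and 332 CPM (0.26, adjusted p = 0.000104), the nucleoside carrier SLC29A1 rose by 0.14 (adjusted p = 0.00294) and ORAI2, a subunit of store-operated calcium channels, by 0.36 (adjusted p = 0.000946). Of 53 ion channels and pumps 8 were called higher and 1 lower, but only 1 was called without untreated replicate 2.

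Among the listed transcription factors the largest rise that passed without each library was that of HIC1, a zinc finger repressor (chromosome 17, 2055103 to 2063241). It was at 11.3 and 9.17 CPM in untreated cells and at 20.6 and 20.7 CPM after 24 h of DFO (log2 change 1.01, SE 0.105, adjusted p = 0.00024); the locus overlaps SMG6. KLF2, a regulator of lymphocyte quiescence and trafficking, had a change of like size, from 2.30 and 1.52 CPM to 4.004 and 3.83 CPM (1.03, adjusted p = 0.0152). It failed the test when untreated replicate 2 (0.14), DFO 24 h replicate 1 (0.0717) or DFO 24 h replicate 2 (0.0709) was left out. IRF8, an interferon regulatory factor of NK and myeloid cells (chromosome 16, 85899162 to 85922609), went from 90.9 and 82.7 CPM to 128 and 132 CPM (0.58, SE 0.0397, adjusted p = 1.82e-05). For IRF8 the gap between the groups was several times the distance between libraries of a group.

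Among factors of lymphoid development 8 of 38 were higher and 5 lower, with 8 called in all without untreated replicate 2. The inhibitors of E-protein DNA binding rose: ID2, which NK cells need to develop, went from 149 and 141 CPM to 186 and 200 CPM (log2 change 0.41, adjusted p = 9.38e-05) and ID3 from 15.7 and 12.7 CPM to 20.3 and 22.8 CPM (0.60, adjusted p = 0.00314). MYB, a factor of blood progenitors, went from 11.1 and 9.35 CPM to 15.0 and 16.0 CPM (0.60, adjusted p = 0.00219), and its relative MYBL1 from 117 and 106 CPM to 146 and 149 CPM (0.41, adjusted p = 0.00013). PRDM1, the repressor BLIMP1 of terminal lymphocyte differentiation, rose from 63.7 and 57.0 CPM to 77.7 and 76.5 CPM (0.35, adjusted p = 0.000849). Of the T-box pair that directs NK maturation, TBX21 was called higher and EOMES lower. TBX21 went from 275 and 261 CPM to 294 and 303 CPM (0.16, adjusted p = 0.0337), but its call ended without any of 5 libraries, with adjusted p from 0.0534 to 0.287. EOMES went from 171 and 173 CPM to 150 and 152 CPM (-0.19, adjusted p = 0.000903). RUNX3 was at 263 and 291 CPM before and at 237 and 232 CPM after (-0.24, adjusted p = 0.00604), and did not pass when untreated replicate 2 (0.0583) or DFO 24 h replicate 2 (0.066) was left out.

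ZNF683, which encodes HOBIT, a factor of tissue-resident lymphocytes (chromosome 1, 26361634 to 26374518), fell from 3.35 and 3.21 CPM to 0.665 and 0.503 CPM (log2 change -2.49, SE 0.196, adjusted p = 4.39e-05). PAX5, the B cell identity factor, was low throughout, at 0.577 and 1.39 CPM and then at 0.138 and 0.192 CPM (-2.56, SE 0.405, adjusted p = 0.00363). NFILZ, annotated as a relative of NFIL3, went from 5.34 and 6.87 CPM to 1.23 and 1.07 CPM (-2.40, SE 0.146, adjusted p = 9.55e-06). As in every called gene, the DFO libraries of these 3 genes did not overlap the untreated ones, which adds no support.

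The co-repressors SKI and SKIL, which bind SMAD proteins and restrain TGF-beta signalling, fell together. SKI (chromosome 1, 2228319 to 2310213) went from 66.2 and 76.4 CPM to 36.7 and 36.8 CPM (log2 change -0.96, SE 0.0643, adjusted p = 1.7e-05). SKIL (chromosome 3, 170357715 to 170396849) went from 28.1 and 33.9 CPM to 13.8 and 15.1 CPM (-1.10, SE 0.0813, adjusted p = 2.85e-05). SMAD3, a mediator of TGF-beta signals, rose from 13.5 and 11.5 CPM to 17.2 and 18.3 CPM (0.50, adjusted p = 0.00411). In the list of 41 SMAD, E2F, p53-family and other regulated factors these were 3 of the 5 called genes.

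In the bHLH and MYC-network list 5 of 35 were higher and 5 lower, with 6 called in all without untreated replicate 2. BHLHE40, a circadian and hypoxia-responsive repressor, fell from 183 and 188 CPM to 143 and 142 CPM (log2 change -0.38, SE 0.0278, adjusted p = 2.7e-05). Of the MAX partners that oppose MYC, MXI1 rose from 12.5 and 11.6 CPM to 16.9 and 18.9 CPM (0.57, adjusted p = 0.00148) and MXD4 fell from 16.6 and 17.8 CPM to 11.9 and 11.5 CPM (-0.56, adjusted p = 0.000919). Related members thus moved in opposite directions. CEBPB, a factor of stress and inflammation, went from 57.0 and 62.1 CPM to 34.0 and 34.6 CPM (-0.80, SE 0.0743, adjusted p = 0.00013), and DDIT3, the stress factor CHOP, from 13.1 and 13.3 CPM to 8.79 and 9.30 CPM (-0.55, adjusted p = 0.00344). RARA, the retinoic acid receptor alpha, rose by 0.37 (adjusted p = 0.00227). HIF1A mRNA was at 94.9 and 92.2 CPM untreated and 90.2 and 91.6 CPM after DFO (-0.04, adjusted p = 0.49); HIF is controlled mainly at the protein level, which was not measured.

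Among secreted factors, 5 of the 6 called chemokines were higher, and CSF1, IL1RN and PLAU were lower. Of 10 tested chemokines 5 were called higher and 1 lower, beside 3.43% and 3.27% of all tested genes. The list's median log2 change was 0.47. CCL3, a chemokine that draws in monocytes and T cells (chromosome 17, 36088256 to 36090143), was at 984 and 767 CPM in untreated cells and at 1415 and 1526 CPM after DFO (0.75, SE 0.0829, adjusted p = 0.000363). CCL4 went from 147 and 92.8 CPM to 192 and 205 CPM (0.73, adjusted p = 0.0126). Its untreated libraries stood far apart: the change was 1.10 without untreated replicate 1 and 0.44 without untreated replicate 2, and the call ended without DFO 24 h replicate 2 (adjusted p = 0.0854). XCL1, the ligand of XCR1 on cross-presenting dendritic cells, went from 60.2 and 49.7 CPM to 75.5 and 80.4 CPM (0.50, adjusted p = 0.00143) and its close copy XCL2 from 78.9 and 68.7 CPM to 97.2 and 103 CPM (0.44, adjusted p = 0.000929). XCL1 and XCL2, like CCL3 and CCL3L3, are nearly identical in sequence, so the split of reads within each pair is uncertain. The count of chemokine rises and the list's median may therefore hold the same rise more than once. CCL5 was at 629 and 646 CPM and then at 621 and 625 CPM (-0.03, adjusted p = 0.511). CCL18, the chemokine called lower, lost its call without DFO 24 h replicate 1 (adjusted p = 0.0577).

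IFNG, a cytokine released by NK cells (chromosome 12, 68154768 to 68159740), rose from 8.31 and 6.02 CPM to 12.3 and 13.3 CPM (log2 change 0.83, SE 0.125, adjusted p = 0.00259). CSF1, the growth factor of macrophages (chromosome 1, 109910506 to 109930992), fell from 244 and 275 CPM to 145 and 148 CPM (-0.83, SE 0.0476, adjusted p = 6.87e-06). IL1RN, the soluble antagonist of the interleukin 1 receptor, fell from 5.99 and 7.08 CPM to 2.72 and 1.75 CPM (-1.55, SE 0.187, adjusted p = 0.000647). The interleukin, interferon and colony-stimulating factor list of 22 held 2 rises and 3 falls in all. PLAU, the protease urokinase, fell from 21.5 and 22.8 CPM to 13.2 and 13.9 CPM (-0.71, SE 0.0577, adjusted p = 5.25e-05). Of 50 granule proteins, proteases and inhibitors 3 were higher and 3 lower, with 2 called in all without untreated replicate 2. The granzyme GZMA went from 211 and 211 CPM to 236 and 237 CPM (0.17, adjusted p = 0.00107). PRF1, the pore-forming perforin, went from 259 and 243 CPM to 273 and 280 CPM (0.14, adjusted p = 0.0236) and lost its call without untreated replicate 2 (0.197), DFO 24 h replicate 1 (0.0513) or DFO 24 h replicate 2 (0.153). IGHM, the heavy chain gene of IgM, rose from 47.3 and 44.1 CPM to 80.8 and 84.4 CPM (0.85, SE 0.0405, adjusted p = 3.85e-06), while the summed level of 12 B cell markers was 2.25 CPM or less in these 4 libraries. Of 55 growth factors, morphogens and hormones 1 was called (1.82%).

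In the list of negative feedback genes of the ERK pathway the 5 called members were all higher, and 16 were not called. Over all tested genes 3.43% were called higher. Of 21 dual-specificity phosphatases and related ERK inhibitors 5 were called higher and none lower, with a median log2 change of 0.16 and a range of 4 to 6 called without 1 of the 4 libraries. DUSP6, a phosphatase of ERK, rose from 16.7 and 13.8 CPM to 24.9 and 25.7 CPM (0.73, SE 0.0828, adjusted p = 0.000417). SPRED1, an inhibitor of the RAS pathway, rose by 0.39 (adjusted p = 0.00185) and DUSP7 by 0.24 (adjusted p = 0.00236). The cytokine feedback genes CISH and PIM1, both targets of STAT5, were lower, within a list of 38 SOCS, CISH and ubiquitin-editing regulators that had 5 members higher and 5 lower (median log2 change -0.02, and 5 called in all without DFO 24 h replicate 2). CISH went from 254 and 266 CPM to 211 and 217 CPM (-0.28, adjusted p = 0.000152) and PIM1 from 277 and 290 CPM to 229 and 229 CPM (-0.31, adjusted p = 0.000331). Among apoptosis regulators CFLAR, which restrains caspase 8, fell by 0.28 (adjusted p = 0.000162), BMF, a death-promoting member of the BCL2 family, fell by 0.33 (adjusted p = 0.000783), and TNFAIP8 rose by 0.52 (adjusted p = 0.000144).

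Genes of chromatin proteins, not all of them enzymes, were called in both directions, with more falls. Over all tested genes 3.43% were called higher and 3.27% lower. Of 69 DNA and histone methyltransferases and remodelers 12 were lower and 6 higher, with 7 (without untreated replicate 2) to 14 called when 1 of the 4 libraries was left out. SETD2, the histone H3 lysine 36 methyltransferase, went from 161 and 160 CPM to 139 and 135 CPM (log2 change -0.22, adjusted p = 0.00275), the acetyltransferase CREBBP from 204 and 215 CPM to 188 and 184 CPM (-0.17, adjusted p = 0.00373) and ARID5A from 24.6 and 28.7 CPM to 19.4 and 19.0 CPM (-0.47, adjusted p = 0.00209). HDAC9, a deacetylase, rose from 30.8 and 26.7 CPM to 41.4 and 44.8 CPM (0.58, adjusted p = 0.000363). Of 35 demethylases that need oxygen and iron 5 were lower and 1 higher, and 1 was called without DFO 24 h replicate 2. KDM7A went from 22.8 and 25.0 CPM to 15.5 and 16.2 CPM (-0.59, SE 0.0669, adjusted p = 0.000413). KDM6B, the one called higher (0.31, adjusted p = 0.0327), lost its call without untreated replicate 2 (0.271), DFO 24 h replicate 1 (0.0979) or DFO 24 h replicate 2 (0.165).

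Further genes were named for the size of their change or for their p. MYO5B, a motor of recycling endosomes, went from 8.28 and 11.4 CPM to 1.96 and 1.61 CPM (log2 change -2.46, SE 0.169, adjusted p = 1.82e-05). TSC22D3, the glucocorticoid-induced leucine zipper, went from 4.34 and 3.73 CPM to 1.2 and 1.21 CPM (-1.75, SE 0.138, adjusted p = 4.51e-05). QSOX1, a secreted enzyme that forms disulfide bonds (chromosome 1, 180154869 to 180204030), went from 103 and 126 CPM to 53 and 53 CPM (-1.12, SE 0.0707, adjusted p = 1.09e-05). In all 3 genes the DFO libraries lay close together and, as in every called gene, did not overlap the untreated ones. NIBAN1, a stress-regulated protein, fell by 0.80 (adjusted p = 4.75e-06), MGAT1, an enzyme of N-glycan synthesis in the Golgi, fell by 0.59 (adjusted p = 1.06e-05) and the intermediate filament gene VIM fell by 0.27 (adjusted p = 0.000986). Among rises, the RNA-editing enzyme ADARB1 went from 122 and 114 CPM to 175 and 174 CPM (0.57, SE 0.0397, adjusted p = 2.05e-05). AMD1, a rate-limiting enzyme of polyamine synthesis, went from 256 and 249 CPM to 337 and 338 CPM (0.42, SE 0.0252, adjusted p = 9.55e-06). The RNA-binding protein gene RBM38 rose by 0.57 (adjusted p = 0.00013) and the phosphoinositide phosphatase gene MTMR10 by 0.60 (adjusted p = 5.1e-05). SLC6A5, a glycine carrier of neurons, was low at 0.563 and 0.398 CPM and rose to 1.73 and 1.77 CPM (1.86, SE 0.286, adjusted p = 0.00305).

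Some of the largest fitted changes at 1 CPM or more belong to read-through or overlapping transcripts, whose counts depend on how shared reads were assigned. The read-through TVP23C-CDRT4 went from 1.31 and 0.531 CPM to 16 and 14.3 CPM (log2 change 4.03, adjusted p = 0.0102) and lost its call without untreated replicate 2 (0.119). UTP14C, a nucleolar protein gene within ALG11, went from 0.348 and 0.312 CPM to 7.04 and 4.57 CPM (4.13, adjusted p = 0.0382), and CNTF, a neurotrophic cytokine gene that overlaps ZFP91-CNTF, from 0.243 and 0.391 CPM to 3.2 and 2.98 CPM (3.29, adjusted p = 0.0179). Neither call passed without any 1 of the 4 compared libraries, with adjusted p from 0.0861 to 0.241 for UTP14C and from 0.0578 to 0.121 for CNTF. The read-through RPS10-NUDT3 was at 28.3 and 2.59 CPM untreated and at 0.357 and 1.27 CPM with DFO (-4.24, adjusted p = 0.0237), so that without untreated replicate 1 the change was -1.66 (0.213); it also failed without DFO 24 h replicate 1 (0.147) or 2 (0.0797). LY75-CD302 was at 12 and 3.89 CPM untreated and at 2.2 and 1.74 CPM with DFO (-2.02, adjusted p = 0.0399), and -0.98 without untreated replicate 1 (0.313). It also failed when either DFO 24 h or either DFO 6 h library was left out, with adjusted p from 0.0517 to 0.228.

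**Figure D4:**
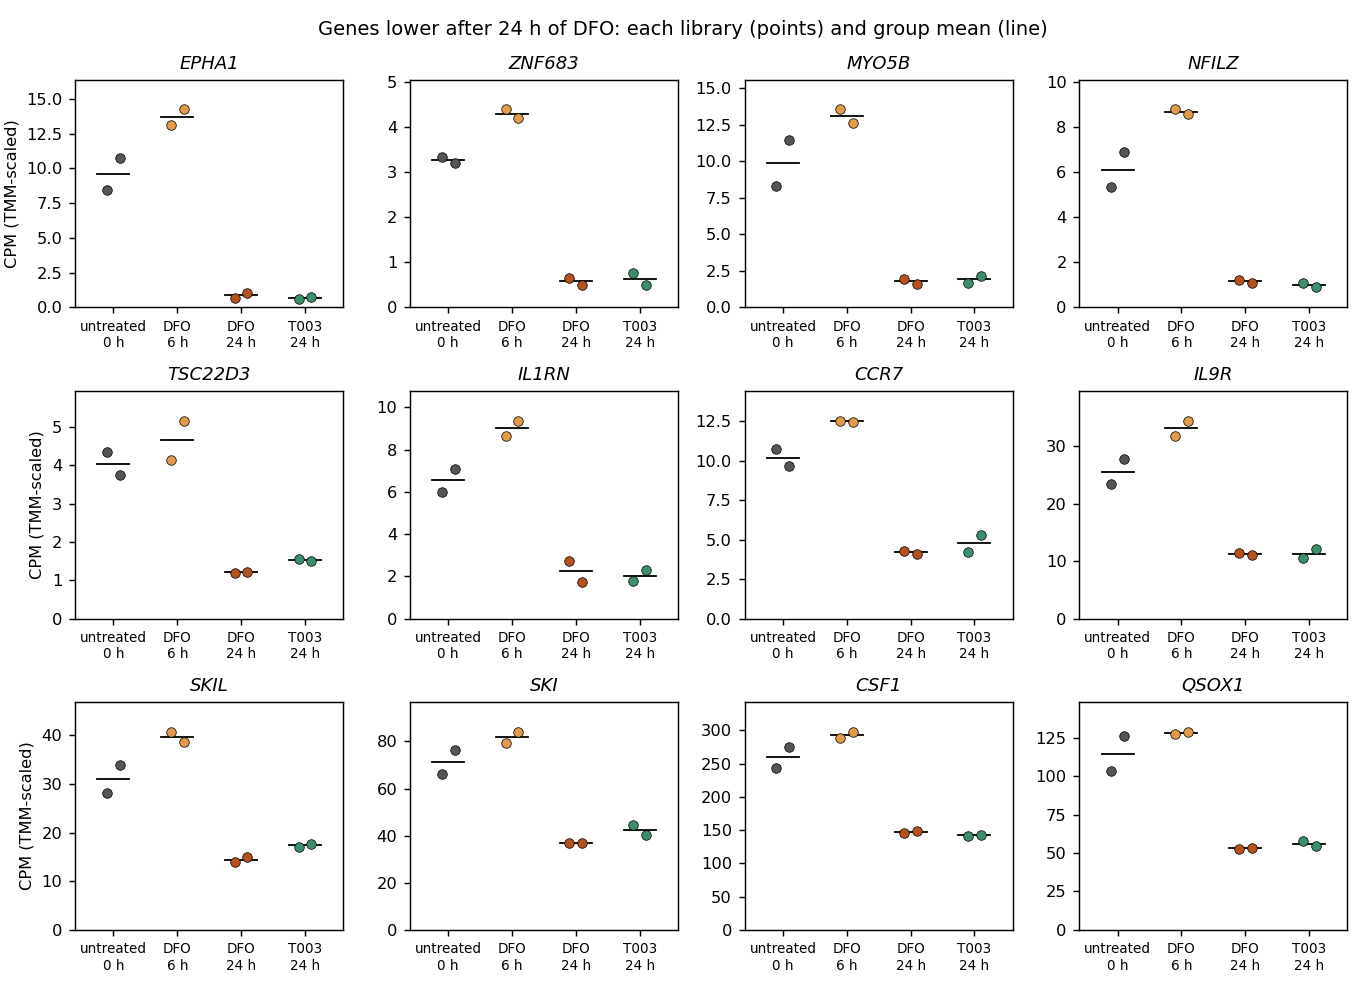
Each panel shows 1 gene called lower after 24 h of DFO, in CPM scaled by TMM factors, with a point for each library and a line at the group mean for untreated cells, DFO at 6 h and 24 h, and T003 at 24 h (2 libraries each, axes from 0). The 24 h points of both agents lie below the untreated and 6 h points in every panel, as for EPHA1 at 0.697 and 1.03 CPM with DFO against 8.45 and 10.8 CPM untreated.

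The same libraries were set beside DFO at 6 h to see which of these genes had already moved. Between 24 h and 6 h of DFO 1991 genes passed the test (9.89% of those tested), and both contrasts use the 24 h DFO libraries. EPHA1 was at 13.1 and 14.2 CPM after 6 h, above both untreated libraries, though not past the test there (log2 change 0.51, adjusted p = 0.233). IL9R was at 31.8 and 34.5 CPM at 6 h (0.37, adjusted p = 0.184), SKIL at 40.8 and 38.7 CPM (0.36, adjusted p = 0.184) and CSF1 at 289 and 298 CPM (0.18, adjusted p = 0.209). For these 4 genes the fitted fall from 6 h to 24 h was wider than that from untreated cells. The 2 falls differ by the change at 6 h, which did not pass the test for any of the 4. From 6 h to 24 h EPHA1 changed by -3.98 on the log2 scale (adjusted p = 9.74e-07), IL9R by -1.56, SKIL by -1.46 (both adjusted p = 2.4e-06) and CSF1 by -1.002 (adjusted p = 1.17e-06). Of the rises, HIC1 was at 8.37 and 9.53 CPM at 6 h (log2 change against untreated -0.20, adjusted p = 0.488), IRF8 at 82.7 and 81.8 CPM (-0.08, adjusted p = 0.461) and CCL3 at 786 and 792 CPM (-0.15, adjusted p = 0.501). These levels lay below the untreated means of 10.3, 86.8 and 875 CPM. Untreated replicate 2 was at 9.17, 82.7 and 767 CPM, so for HIC1 and CCL3 the 6 h libraries overlapped the untreated ones. TFRC was already at 361 and 345 CPM after 6 h and passed the test there (1.04, adjusted p = 1.81e-07). The overlapping transcripts CNTF, at 4.28 and 4.09 CPM (3.73, adjusted p = 0.155), and TVP23C-CDRT4, at 8.33 and 12.5 CPM (3.49, adjusted p = 0.184), had changes at 6 h that did not pass.

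T003 targets the transferrin receptor at the cell surface and was sampled at the same 24 h, so it gives a time-matched group with another agent. Between DFO and T003 at 24 h 270 genes passed the test (1.34% of tested genes), 92 higher and 178 lower with DFO. For most of the genes described above the 24 h values with both agents were close and the difference did not pass the test. EPHA1 was at 0.634 and 0.761 CPM with T003 (log2 difference DFO minus T003 0.31, adjusted p = 0.544), IL9R at 10.6 and 12.1 CPM (-0.01, adjusted p = 0.985), CSF1 at 142 and 143 CPM (0.04, adjusted p = 0.784), and IRF8 at 129 and 124 CPM (0.04, adjusted p = 0.745). A p that misses the threshold does not show equal levels. Both agents were compared with the same untreated libraries.

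Only 8 of the 270 differences passed without each library in turn, and 3 of these genes had also changed with DFO against untreated cells. PPP1R16B, a regulatory subunit of protein phosphatase 1 (chromosome 20, 38805697 to 38923024), was at 439 and 435 CPM untreated, 378 and 373 CPM with DFO and 455 and 448 CPM with T003. DFO was thus below both other groups (-0.22 against untreated, adjusted p = 0.000166, and -0.27 against T003, SE 0.0215, adjusted p = 0.00066). LPIN1, a phosphatidic acid phosphatase of lipid synthesis (chromosome 2, 11677544 to 11827409), was at 109 and 105 CPM untreated, 123 and 123 CPM with DFO and 151 and 153 CPM with T003 (-0.31 for DFO minus T003, SE 0.0295, adjusted p = 0.00202). DUSP5, a nuclear ERK phosphatase (chromosome 10, 110497907 to 110511533), was at 223 and 216 CPM untreated, 245 and 249 CPM with DFO and 293 and 300 CPM with T003 (-0.26, SE 0.0262, adjusted p = 0.00231). Both genes rose with DFO, and their T003 libraries lay higher still.

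Other differences did not pass without some of the libraries. The genes given here had passed the test with all libraries, so the lack of overlap between their DFO and T003 values adds no support. SCD, the desaturase of fatty acid synthesis, was at 715 and 712 CPM with DFO and 810 and 814 CPM with T003 (log2 difference -0.19, adjusted p = 0.00257), and lost its call without T003 24 h replicate 2 (0.059). HSPA5, the endoplasmic reticulum chaperone BiP, was at 990 and 1020 CPM untreated, 795 and 780 CPM with DFO and 683 and 695 CPM with T003 (0.19, adjusted p = 0.00539), and lost its call without T003 24 h replicate 1 (0.0668). BHLHE40 was at 143 and 142 CPM with DFO and 161 and 163 CPM with T003 (-0.19, adjusted p = 0.012). That difference did not pass without either library of DFO 24 h or of T003 24 h, with adjusted p from 0.0865 to 0.145. The same held for BCL2, an inhibitor of apoptosis, at 130 and 131 CPM with DFO and 149 and 149 CPM with T003 (-0.19, adjusted p = 0.00768), with adjusted p from 0.0603 to 0.0839.

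**Figure D5:**
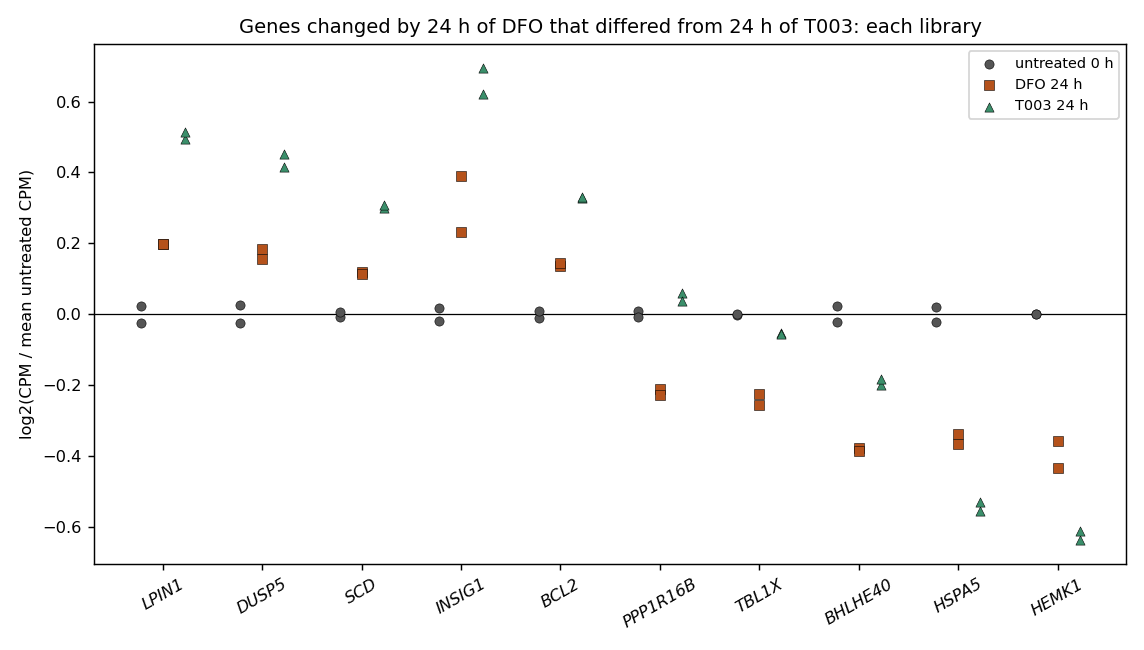
Each point is 1 library, drawn as the log2 of its CPM over the mean untreated CPM of that gene, for untreated cells (circles), DFO at 24 h (squares) and T003 at 24 h (triangles), 2 libraries each. For LPIN1, DUSP5, SCD, INSIG1 and BCL2 the squares lie above 0 and the triangles higher, for TBL1X and BHLHE40 the squares lie lowest, and for HSPA5 and HEMK1 the triangles lie lowest. PPP1R16B has its squares below 0 and its triangles above.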

How the data were processed

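Polyadenylated RNA of NK-92 was measured in 10 libraries. The table the authors deposited holds estimated counts per gene, not normalized and already whole numbers, made with fastp 0.21.0, HISAT2 2.2.1 and StringTie 2.1.6 on hg38, per the submitters' processing notes. Strand handling in counting: not given in the sources used here. Untreated libraries are the columns named as not treated. Testing used the quasi-likelihood F-test of edgeR 4.0.16 (R 4.3.3), with all 10 libraries in 1 model of group (5 residual degrees of freedom), TMM scaling and filterByExpr at a minimum count of 10. P-values were adjusted by Benjamini-Hochberg over the 20125 tested genes, and an adjusted p under 0.05 is called. SE was taken as the size of the log2 change over sqrt(F). CPM are TMM-scaled, and a count of 3 corresponds to 0.0209 to 0.0280 CPM.

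Members and lists were chosen with earlier results of these data known. Named genes are the 30 largest rises and falls with at least 1 CPM and no overlap, the 20 smallest p in each direction, called list members and the 5 best-expressed members not called, the 10 called genes per direction with the smallest p against T003, markers, and TFRC. Alternatives were DESeq2 1.42.0, scaling by RLE, a filter of 1 CPM in at least 2 libraries or none, limma-voom (limma 3.58.1), the replicate number as a block, the 4 compared libraries alone, and leaving out each library; leaving out libraries of other groups was chosen after seeing the data. The fit was tested on simulated data. Gene positions are those of RefSeq for GRCh38.p14.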

Additional observations from a re-analysis of the deposited data

Results flagged for a closer look

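These genes changed differently after 24 h than after 6 h of DFO by the test of that difference, which shares the untreated cells on both sides and so equals the contrast of 24 h with 6 h (log2, edgeR, adjusted over all tested genes). Lower at 24 h than at 6 h were the receptor EPHA1 (-3.98, adjusted p = 9.74e-07), the receptor IL9R (-1.56, adjusted p = 2.4e-06), the co-repressor SKIL (-1.46, adjusted p = 2.4e-06), the oxidase QSOX1 (-1.28, adjusted p = 2.4e-06) and the growth factor CSF1 (-1.002, adjusted p = 1.17e-06). Higher at 24 h than at 6 h were the repressor HIC1 (1.21, adjusted p = 4.99e-05), the factor IRF8 (0.66, adjusted p = 3.88e-06) and the integrin chain ITGA6 (0.49, adjusted p = 0.000853). Each difference was seen in 2 of 2 libraries at 24 h, which did not overlap those at 6 h. The genes were chosen after their values were seen and had passed the test, so this lack of overlap adds no support.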

How the results depend on the processing

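For DFO 24 h against untreated, the count of 1349 was 851 with only the 4 compared libraries, ranged from 431 to 1383 without single libraries, and lay between 1185 and 1870 under the other alternatives. For DFO against T003 at 24 h, the count of 270 was 446 with the filter of 1 CPM, 878 with DESeq2, 117 with the replicate block and 55 with only the 4 compared libraries, and it ranged from 14 to 229 without single libraries. For 24 h against 6 h of DFO, 1991 became 1293 with only the 4 compared libraries and ranged from 950 to 1824 without single libraries. Libraries with the same replicate number did not deviate together (correlations from -0.234 to 0.162), so the numbers were not taken as pairs; with the replicate number as a block 1185 genes were called against untreated cells (602 higher and 583 lower) and 1809 against 6 h. The causes of these shifts were not tested, apart from the loss of libraries. A fit that leaves 1 library in a group assumes that it varies like the other groups. With 2 libraries a group, small changes outside the called genes cannot be judged, and 3822 genes had an unadjusted p under 0.05.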
